A study of Mus musculus with 10 samples.

Results

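The secondary granule proteins of neutrophils were followed through 7 genes, Ltf, Camp, Ngp, Lcn2, Mmp8, Chil3 and Cd177. Their probe sets were taken by gene symbol from the annotation of the array. The genes were chosen with earlier results of these data known, though no measured value was part of the rule. Each gene had 1 probe set of its own among the 45037 probe sets other than controls, and all 7 probe sets were among the 23805 bright enough to be tested (over the array median in no fewer than 2 arrays). They stand for 7 of the 18193 genes with a probe set of their own. Spleen pieces of 10 female BALB/c mice gave the RNA, which was hybridized to Affymetrix mouse arrays, 1 per mouse. All mice, the non-arthritic ones included, had been injected repeatedly into the peritoneum with cartilage proteoglycan (PG) in the adjuvant DDA, the protocol of PG-induced arthritis (PGIA). The groups were 2 old arthritic mice (both 9 months of age), 2 old non-arthritic mice (7 and 5 months), 2 young arthritic mice (5 and 4 months) and 4 young non-arthritic mice (3, 3, 2 and 1 months). In the old and in the young groups alike, the arthritic mice were the older ones, so arthritis and age cannot be told apart there. The labels do not say whether the age is that at immunization or at sacrifice.

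Neutrophils build their granules in sequence while they mature. The primary (azurophil) granules are filled in promyelocytes with myeloperoxidase and serine proteases, the secondary (specific) granules in myelocytes and metamyelocytes, and the tertiary (gelatinase) granules later still. The messages of secondary granule proteins are therefore made mostly in marrow or splenic precursors and are largely shut off in the circulating neutrophil, which keeps the protein. In the mouse, the spleen remains a site of myelopoiesis in adult life, and inflammation expands it. Transcription factors of the C/EBP family, above all C/EBPε, drive this group of genes.

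The promoters of 5 genes are shown because they hold what sequence features the group does and does not share, and because they include the closest paralog of a member. The 250 bases before each annotated start come from RefSeq on the build GRCm38.p6, read 5′ to 3′ on the strand of the gene, and all 7 members had an entry. Capitals mark matches to TTNNGNAA, a common core of C/EBP sites, searched on both strands. Ngp and Ltf have 3 and 2 matches, and Camp, which lies with them in a stretch of 1.17 megabases of chromosome 9, has 0.
Ngp (chr9:110419558-110419807, plus strand): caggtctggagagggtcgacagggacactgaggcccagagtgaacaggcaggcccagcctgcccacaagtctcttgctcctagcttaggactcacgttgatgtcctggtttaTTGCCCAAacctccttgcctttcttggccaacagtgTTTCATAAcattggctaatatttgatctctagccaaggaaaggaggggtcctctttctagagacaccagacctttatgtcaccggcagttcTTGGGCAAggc
Ltf (chr9:111019042-111019291, plus strand): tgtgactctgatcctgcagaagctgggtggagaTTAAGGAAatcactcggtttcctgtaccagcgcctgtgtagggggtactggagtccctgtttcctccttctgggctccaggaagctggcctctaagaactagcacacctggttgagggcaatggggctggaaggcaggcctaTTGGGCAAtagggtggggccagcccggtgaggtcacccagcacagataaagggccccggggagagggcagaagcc
Camp (chr9:109849457-109849706, minus strand): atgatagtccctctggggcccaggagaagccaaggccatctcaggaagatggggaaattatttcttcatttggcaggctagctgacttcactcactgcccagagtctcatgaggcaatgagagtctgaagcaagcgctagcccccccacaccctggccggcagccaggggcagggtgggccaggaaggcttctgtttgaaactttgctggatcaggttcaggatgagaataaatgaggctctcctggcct
Chil3 has 3 matches within the last 53 bases before its annotated start, and its paralog Chil4, which is not a member, has 3 as well, at -131, -66 and -56. The first match of each (TTTCCAAA in Chil3, TTCAGCAA in Chil4) has no match at the same place in the sequence of the other.
Chil3 (chr3:106167565-106167814, minus strand): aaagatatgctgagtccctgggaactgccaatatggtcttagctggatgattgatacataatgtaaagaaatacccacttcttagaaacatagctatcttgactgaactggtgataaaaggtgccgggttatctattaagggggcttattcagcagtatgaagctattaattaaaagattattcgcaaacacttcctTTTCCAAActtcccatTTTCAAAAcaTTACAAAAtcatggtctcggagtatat
Chil4 (chr3:106219480-106219729, minus strand): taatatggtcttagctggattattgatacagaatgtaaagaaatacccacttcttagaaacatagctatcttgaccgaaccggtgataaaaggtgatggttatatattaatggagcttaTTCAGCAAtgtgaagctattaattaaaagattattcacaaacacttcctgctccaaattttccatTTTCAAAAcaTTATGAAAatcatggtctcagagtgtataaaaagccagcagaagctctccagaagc

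The C/EBP core was found in 6 of the 7 members, the exception being Camp, and in 36.8% of all 32851 promoters of the same length. In the members not printed it starts at -216 in Lcn2, at -151 and -19 in Mmp8 and at -55 in Cd177, counted from the annotated start. The core of the PU.1 site, GAGGAA on either strand, was found in 4 of the 7 members (Ltf, Lcn2, Mmp8 and Cd177) and in 23.3% of all promoters, and none of its matches overlapped a C/EBP match. Both motifs were chosen after the expression values were known, and a match says only that these letters are there. Over 221 aligned bases the upstream windows of Chil3 and Chil4 shared 201, or 91.0%.

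**Figure D1:**
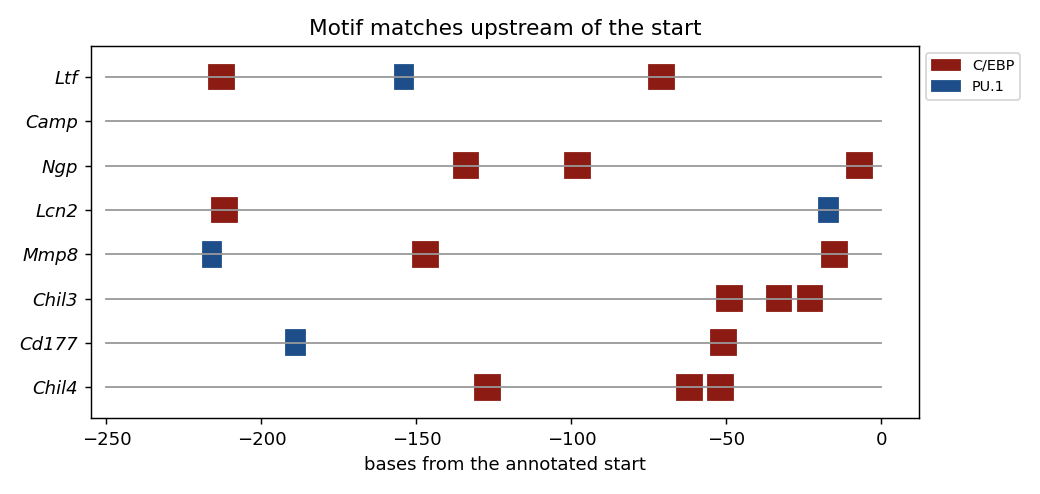
Positions of C/EBP core matches (red) and PU.1 core matches (blue) in the 250 bases before the annotated start, in bases from the start (x-axis), for the 7 members and the paralog Chil4 (rows). Camp has no match of either kind, and Ngp and Chil3 have 3 C/EBP matches each.

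The deposited log2 signals had array medians of 6.88 to 6.96. Among the probe sets kept, old arthritic replicate 2 stood apart from the other mice on the first principal component (52.6, with the next highest at 19.6). Among the dim probe sets left out, the first component separated arthritic mice (20.1 to 32.7) from non-arthritic mice (-19.4 to -12.3). The part of either in the results was not tested, and the members are given without old arthritic replicate 2 below. Markers of spleen cells were present, since all 3 measured B cell markers and all 4 T cell markers lay above the filter. Of the 4 epithelium and pancreas markers, the carboxypeptidase Cpa1 lay below it, at 5.76 to 6.22, and the other 3 lay above it. The epithelial adhesion molecule Epcam, read by a probe set whose name marks possible cross-hybridization, had 8.47 and 8.88 in old arthritic and 8.56 and 8.44 in young arthritic mice, against 7.82 to 8.26 in the 6 non-arthritic mice. At equal age its log2 difference was 0.59 (standard error 0.14, adjusted p = 0.054 from limma), beside 0.15 in the keratin Krt8 and -0.39 (adjusted p = 0.0936) in the trypsinogen Prss2. Their part in the results was not tested.

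The 7 genes moved together through the 10 spleens. In every one of them old non-arthritic replicate 1 was lowest, old non-arthritic replicate 2 next and then young non-arthritic replicate 4, the youngest mouse at 1 month, and these 3 mice lay below the other 7 for 4.89% of all probe sets tested. Young arthritic replicate 2 was the highest mouse in all 7 genes, a place it took in 16.6% of all probe sets. Group means ran in the order young arthritic, old arthritic, young non-arthritic, old non-arthritic in 6 of the genes, and in Mmp8 the arthritic groups changed places by a margin far inside their spread. The ranges of the old and young arthritic mice overlapped in all 7 genes, and those of the young non-arthritic mice overlapped with the young arthritic mice in 6. Standard deviations within groups on the log2 scale were 0.21 to 0.71 in old arthritic, 0.04 to 0.33 in old non-arthritic, 0.33 to 1.07 in young arthritic and 0.28 to 0.74 in young non-arthritic mice.

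**Figure D2:**
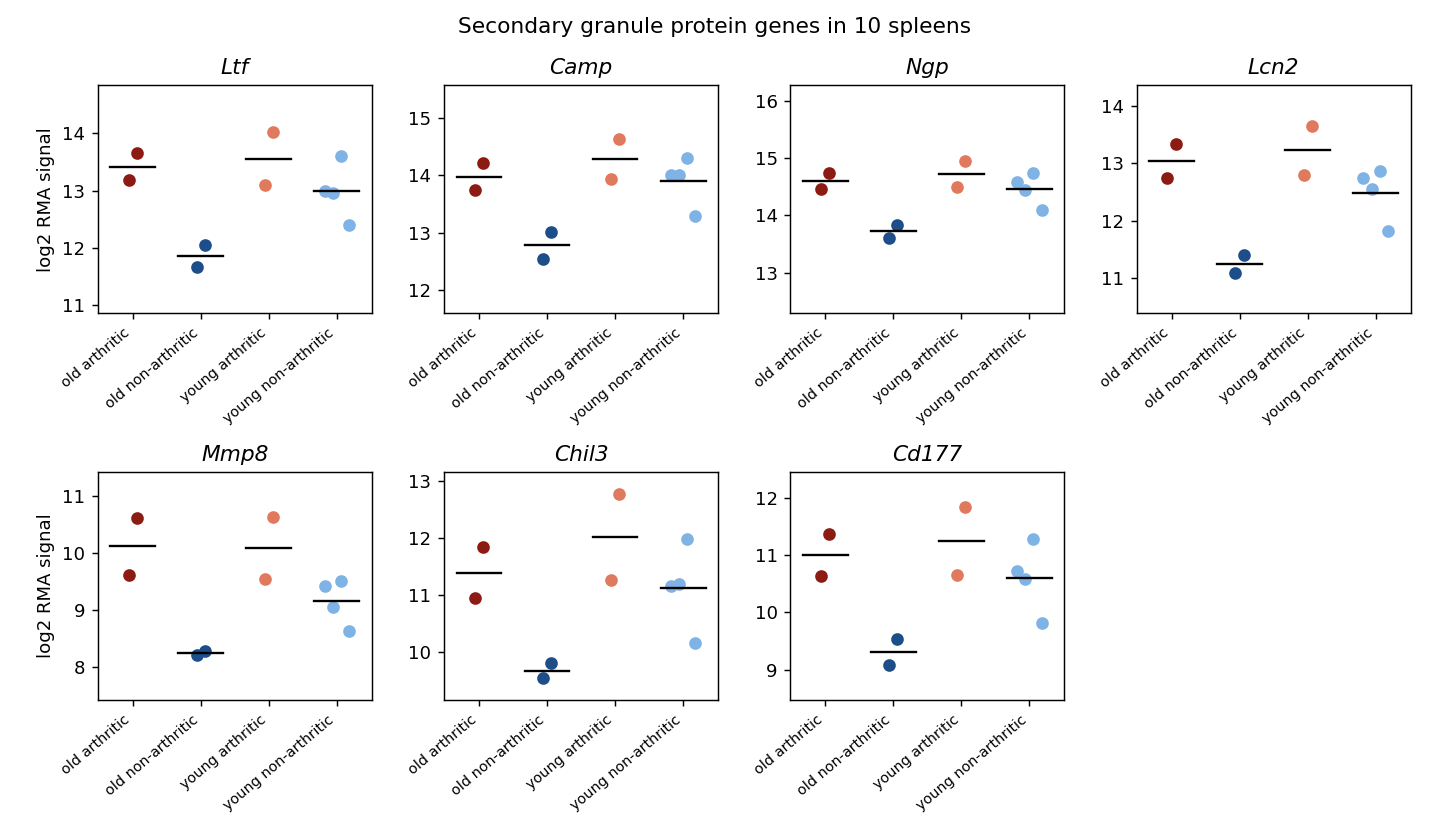
Log2 RMA signal (y-axis) of each of the 7 genes in the 10 mice, by group (x-axis), where each point is 1 mouse and the line is the group mean. Each panel has its own position on the y-axis and the same span, and the 2 old non-arthritic mice lie below the other 8 in every panel.

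Ltf encodes lactoferrin, the iron-binding protein that marks the secondary granule. Its log2 signal was 13.19 and 13.65 in old arthritic mice, against 11.67 and 12.05 in old non-arthritic mice. It was 13.09 and 14.03 in young arthritic mice, against 12.99, 12.95, 13.61 and 12.40 in young non-arthritic mice. The old groups were apart, whereas the young groups overlapped. Camp encodes the cathelicidin precursor that is cut to the antimicrobial peptide CRAMP. Its signal was 13.74 and 14.21 in old arthritic mice, against 12.54 and 13.01 in old non-arthritic mice. In young arthritic mice it was 13.94 and 14.63, against 14.01, 14.01, 14.31 and 13.29 in young non-arthritic mice, so that only the highest arthritic mouse lay above its young non-arthritic counterparts. Ngp, the neutrophilic granule protein related to the cystatins and cathelicidins, varied least, over 1.35 on the log2 scale. Its probe set lay at percentiles 99.5 to 100 of the arrays, where signals can understate changes. The probe sets of Camp (98.5 to 99.9) and Ltf (96.5 to 99.5) were also very bright. Ngp had 14.46 and 14.75 in old arthritic mice, against 13.61 and 13.84 in old non-arthritic mice. In young arthritic mice it had 14.50 and 14.96, against 14.59, 14.45, 14.75 and 14.09 in young non-arthritic mice.

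Lcn2 encodes lipocalin 2, which withholds iron from bacteria by binding their siderophores. Its signal was 12.74 and 13.34 in old arthritic mice, against 11.09 and 11.39 in old non-arthritic mice. Young arthritic mice had 12.80 and 13.66, against 12.74, 12.55, 12.86 and 11.81 in young non-arthritic mice. The lower young arthritic mouse thus stood between young non-arthritic mice. Mmp8 encodes neutrophil collagenase, an enzyme that cuts fibrillar collagen. Its signal was 9.62 and 10.62 in old arthritic mice, against 8.22 and 8.28 in old non-arthritic mice. It was 9.54 and 10.63 in young arthritic mice, against 9.42, 9.06, 9.52 and 8.63 in young non-arthritic mice. Mmp8 was the only member in which both young arthritic mice lay above all 4 young non-arthritic mice (25.6% of all probe sets), and the only one in which all 4 arthritic mice lay above all 6 non-arthritic mice (10.4% of all probe sets). The margin between 9.54 and 9.52 was far inside the spread of either group.

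Chil3 encodes Ym1, a chitinase-like lectin of mouse neutrophils that alternatively activated macrophages also make. Its signal was 10.94 and 11.83 in old arthritic mice, against 9.54 and 9.81 in old non-arthritic mice. Young arthritic mice had 11.26 and 12.77, against 11.15, 11.19, 11.97 and 10.16 in young non-arthritic mice. Of the 7 genes it varied most, over 3.23 on the log2 scale. A probe set shared by Chil3 and Chil4 had 10.54 and 11.30 in old arthritic mice, against 9.19 and 9.48 in old non-arthritic mice. The probe set of Chil4 alone was dim in all 10 mice, at 5.30 to 6.02, and lay below the filter. Retnla, Arg1 and Mrc1, markers of alternatively activated macrophages, gave log2 differences at equal age of 0.42 (standard error 0.20), 0.38 (standard error 0.56) and 0.07 (standard error 0.11), all short of the threshold. Over the 10 mice their r with the mean of the 7 genes was 0.63, 0.38 and -0.20. Their part in the signal of Chil3 was not tested. Cd177 encodes a surface antigen of neutrophils that is stored in the membrane of the secondary granule. Its signal was 10.64 and 11.37 in old arthritic mice, against 9.08 and 9.53 in old non-arthritic mice. In young arthritic mice it was 10.65 and 11.85, against 10.73, 10.58, 11.28 and 9.81 in young non-arthritic mice. Old groups were again apart and young groups overlapped.

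Arthritis among the older mice was compared first, since the series asks how arthritic mice differ from non-arthritic mice of like age. Both old arthritic mice lay above both old non-arthritic mice in 7 of 7 genes, as in 35.3% of all probe sets, and all 4 arthritic mice lay above both old non-arthritic mice in 7 of 7, as in 27.4%. Among mice aged 4 months or more, with the 2 arthritic groups averaged and set against the old non-arthritic group, Lcn2 rose 3.73-fold (log2 difference 1.90, standard error 0.33, adjusted p = 0.0469 from limma). It was the only 1 of the 7 that passed, and 0.576% of all probe sets did. The other 6 had log2 differences of 0.94 (Ngp) to 2.02 (Chil3) and adjusted p-values of 0.0609 to 0.0891. At an unadjusted p under 0.05 all 7 were higher, as were 17.9% of all probe sets, and the median log2 difference was 1.83, against 0.08 over all probe sets. The call of Lcn2 ended without any 1 of the 4 young non-arthritic mice. The lowest adjusted p of the 7 genes was then 0.052 to 0.0756 in limma. Leaving out a mouse of another group leaves 1 mouse in that group. The median of 1.83 was 1.53 to 2.11 in these fits, and 1.60 without old arthritic replicate 2.

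Within old mice alone, 0 of 7 genes passed in limma, with 0.0714% of all probe sets called. The log2 differences ran from 0.88 in Ngp to 1.87 in Mmp8 (1.84-fold to 3.65-fold) and the adjusted p-values from 0.0934 to 0.186. All 7 were higher at an unadjusted p under 0.05, as were 13.6% of all probe sets. The median of 1.70 became 1.33 when old arthritic replicate 2 was left out. It became 2.07 when old arthritic replicate 1 was.

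Within young mice the differences were smaller. Again 0 of 7 genes passed in limma, with 0.311% of all probe sets called, and the log2 differences were 0.26 (standard error 0.20) in Ngp, 0.38 (0.30) in Camp, 0.57 (0.34) in Ltf, 0.66 (0.43) in Cd177, 0.74 (0.33) in Lcn2, 0.89 (0.52) in Chil3 and 0.93 (0.37) in Mmp8. Lcn2 and Mmp8 were higher at an unadjusted p under 0.05, as were 15.3% of all probe sets. The median of 0.66 rested on 1 mouse, since it was 0.10 without young arthritic replicate 2, beside 0.09 over all probe sets. It was 1.17 without young arthritic replicate 1 and 0.39 without the mouse of 1 month.

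Whether arthritis made a different change in old than in young mice was tested directly. The difference, old minus young, was positive in all 7 genes, from 0.63 (standard error 0.30) in Ngp to 1.06 (standard error 0.50) in Lcn2. No gene passed, with adjusted p-values of 1 in limma, and 0 of 7 reached an unadjusted p under 0.05. Of all probe sets, 0% passed and 0.748% were higher at an unadjusted p under 0.05. A larger effect in old mice was thus not shown for these genes, and the median of 0.94 was 0.45 without young arthritic replicate 1 and 1.49 without young arthritic replicate 2, and it was 0.58 when old arthritic replicate 2 was left out.

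**Figure D3:**
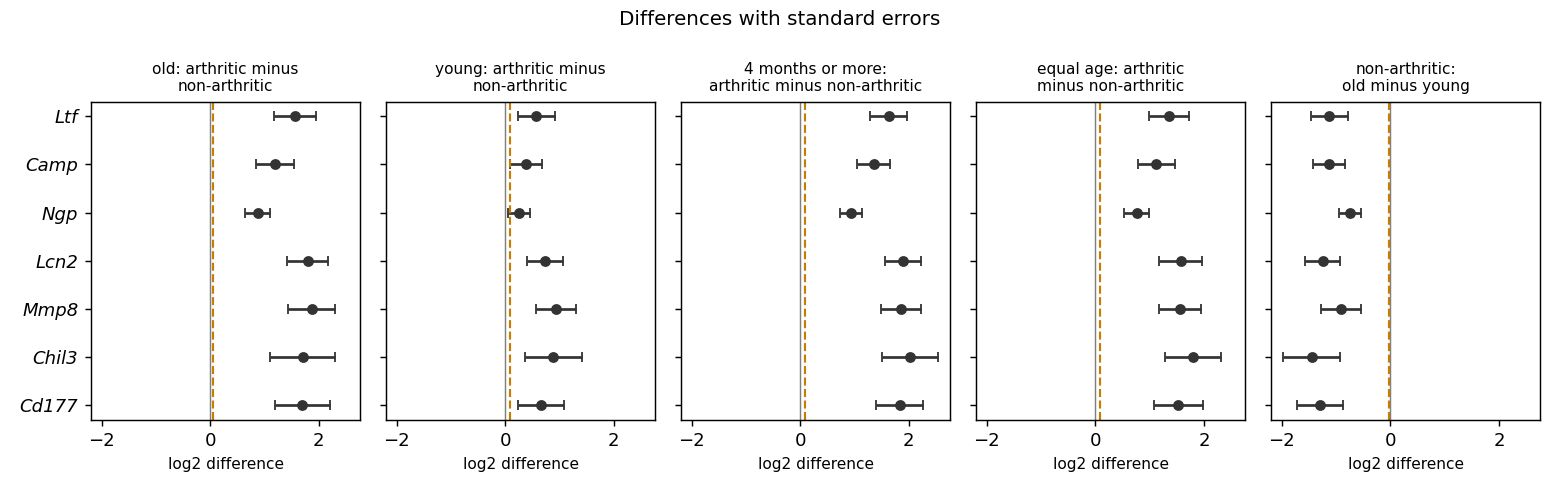
Log2 differences (x-axis) of the 7 genes (rows) in 5 comparisons (panels), with bars of 1 standard error from limma, where the dashed line is the median of all 23805 probe sets tested. Differences between arthritic and non-arthritic mice lie between 0.26 and 2.02, and those between old and young non-arthritic mice between -1.45 and -0.75.

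Arthritic mice were next set against non-arthritic mice at equal age, by a fit that also held age in months. The fit takes age as a straight line, which the values of non-arthritic mice did not follow (below). Both old arthritic mice were at 9 months, beyond the oldest non-arthritic mouse at 7 months. The 7 genes had log2 differences of 0.76 (Ngp), 1.12 (Camp), 1.36 (Ltf), 1.53 (Cd177), 1.56 (Mmp8), 1.57 (Lcn2) and 1.80 (Chil3), or 1.69-fold to 3.47-fold. Standard errors ran from 0.23 to 0.52 and adjusted p-values in limma from 0.0622 to 0.0952, so that 0 of 7 passed, with 2.26% of all probe sets called. All 7 were higher at an unadjusted p under 0.05, as were 19.2% of all probe sets, and their median was 1.53, against 0.09 over all probe sets. The median stayed at 1.45 when old arthritic replicate 2 was dropped, and it was 1.17 without old non-arthritic replicate 1, where 4 of 7 were higher at an unadjusted p under 0.05. A single pair of mice of the same labelled age, 5 months, differed in arthritis. Young arthritic replicate 1 lay above old non-arthritic replicate 2 by 1.42 in Lcn2, 1.45 in Chil3, 1.26 in Mmp8, 1.13 in Cd177, 1.04 in Ltf, 0.93 in Camp and 0.66 in Ngp, with a median of 0.10 over all probe sets. With 1 mouse on each side this has no test.

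Age was then compared without arthritis. Both old non-arthritic mice lay below all 4 young non-arthritic mice in 7 of 7 genes, as in 7.77% of all probe sets, and below all 8 other mice in 7 of 7, as in 4.08%. Old minus young non-arthritic, the log2 differences were -0.75 in Ngp, -0.91 in Mmp8, -1.13 in Ltf, -1.13 in Camp, -1.25 in Lcn2, -1.30 in Cd177 and -1.45 in Chil3, with standard errors of 0.20 to 0.52. The adjusted p was 0.997 for each in limma, and 0% of all probe sets passed. At an unadjusted p under 0.05 all 7 were lower in old mice, as were 2.10% of all probe sets. Lcn2, Ngp and Camp held the places 38, 39 and 41 among the 23805 probe sets ordered by p. The median of -1.13 was -0.94 without old non-arthritic replicate 1, where 2 of 7 were lower at an unadjusted p under 0.05, and -1.34 without the mouse of 1 month.

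The slope with age at equal arthritis status was negative in all 7 genes, from -0.10 per month in Ngp and Mmp8 to -0.23 in Chil3. The adjusted p-values in limma ran from 0.479 to 0.63 and 0 of 7 passed, with 0.0042% of all probe sets called. Camp, Ngp and Chil3 were lower with age at an unadjusted p under 0.05, as were 6.85% of all probe sets. That count of 3 became 0 without any 1 of old arthritic replicate 1, old non-arthritic replicates 1 and 2, young arthritic replicate 2 and young non-arthritic replicate 3, became 1 without young non-arthritic replicate 1 or 2, and became 6 or 7 without old arthritic replicate 2, young arthritic replicate 1 or the mouse of 1 month. The median slope of -0.16 was -0.09 without old non-arthritic replicate 1. The values did not fall evenly with age. Averaged over the 7 genes after each was scaled to a mean of 0 and an SD of 1, non-arthritic mice stood at -0.81 at 1 month, 0.70 at 2 months, 0.22 and 0.05 at 3 months, -1.26 at 5 months and -1.68 at 7 months. Arthritic mice stood at 1.46 at 4 months, 0.22 at 5 months, and 0.14 and 0.95 at 9 months. Hence the mouse of 1 month was nearer to the non-arthritic mouse of 5 months than to any mouse of 2 or 3 months. Of the arthritic mice of 9 months, old arthritic replicate 1 (0.14) was in the range of the young non-arthritic mice. Old arthritic replicate 2 (0.95) lay above that range, between the young arthritic mice. These contrasts share mice: the 2 old non-arthritic mice are the lower side of the comparisons in old mice, from 4 months on and with age.

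**Figure D4:**
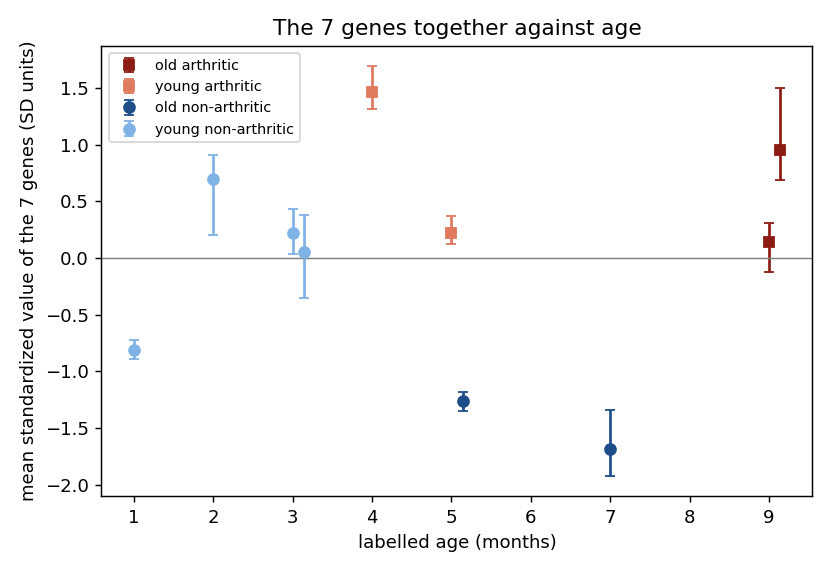
Mean standardized value of the 7 genes in SD units (y-axis) against the labelled age in months (x-axis), where each point is 1 mouse, bars run from the lowest to the highest of the 7 genes, and squares are arthritic and circles non-arthritic mice. Mice of 1 age are set slightly apart sideways, and at 5 months the arthritic mouse stands at 0.22 and the non-arthritic mouse at -1.26.

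How tightly the members kept together was described by Pearson's r over the 10 mice, which share their arrays and groups. Between pairs of members r ran from 0.877 (Camp and Mmp8) to 0.995 (Ltf and Cd177). Against the mean of the other 6, Cd177 had 0.997 and Mmp8, the collagenase, the lowest value at 0.933. Of 11863 genes scored, the 10 outside the group most like its mean were Prom1 (0.994), S100a9 (0.990), Mpo (0.990), Anxa1 (0.988), AA467197 (0.985), Pgd (0.985), Hdc (0.985), Elane (0.984), Pglyrp1 (0.982) and Adgrg3 (0.980). S100a9 encodes a subunit of calprotectin of the neutrophil cytosol, Mpo and Elane encode myeloperoxidase and elastase of the primary granule, and Pglyrp1 encodes a peptidoglycan-binding granule protein. Prom1 encodes the membrane protein prominin 1, Anxa1 the phospholipid-binding annexin A1, Hdc the enzyme that makes histamine, and Pgd an enzyme of the pentose phosphate pathway.

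The other genes of the granule pathway were counted from lists. For other secondary and tertiary granule proteins, 15 of 18 genes were tested and 0 passed at equal age, with 13 higher at an unadjusted p under 0.05 and a median log2 difference of 0.69. Of all probe sets, 2.26% passed and 19.2% were higher at an unadjusted p under 0.05 in this comparison, with a median of 0.09, and the lists below stand beside the same values. Olfm4, the secondary granule protein olfactomedin 4, had 1.58 (standard error 0.45), and Hp, the hemoglobin scavenger haptoglobin, had 1.07 (standard error 0.31). Fpr2, a receptor for formyl peptides, had 0.88 (standard error 0.25) and the metalloprotease Adam8 had 0.47 (standard error 0.12). Of the primary granule list, 8 of 10 genes were tested and 0 passed, with 5 higher at an unadjusted p under 0.05 and a median of 1.13. Mpo had 1.11 (standard error 0.32) and the proteases Ctsg, Elane and Prtn3 had 1.32, 1.19 and 1.15. In the mature neutrophil list, 10 of 13 genes were tested, 0 passed, 4 were higher at an unadjusted p under 0.05 and the median was 0.21. Its calprotectin genes S100a8 and S100a9 had 0.42 and 0.57, the lectin Clec4d and the transcription repressor Mxd1 had 0.44 each (standard errors 0.14 and 0.18), and these were the 4. The receptor for G-CSF, Csf3r, had 0.20 (standard error 0.13). Likeness to the members ran widely in this list, with r of 0.11 (the chemokine receptor Cxcr2, log2 difference -0.15) to 0.99 (S100a9). A shorter list of 5 mature neutrophil markers held S100a8, S100a9, Cxcr2, Csf3r and, from the granule list above, Mmp9 (0.91, standard error 0.27). Its median was 0.42, with 0 passed and 3 higher at an unadjusted p under 0.05.

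The same lists were counted for age in non-arthritic mice, old minus young, where 0 genes of any list passed, and where 2.10% of all probe sets were lower at an unadjusted p under 0.05 with a median of -0.02. The primary granule list had a median of -1.11 with 5 of 8 lower at an unadjusted p under 0.05, other secondary and tertiary granule proteins -0.34 with 3 of 15, and mature neutrophil genes -0.11 with 2 of 10. The shorter list of mature neutrophil markers, which includes Mmp9, had -0.31 with 2 of 5. Eosinophil and mast cell markers, a list that also holds the basophil protease Mcpt8, had -1.01 with 1 of 4 lower at an unadjusted p under 0.05. Erythroid markers had 0.43, above 0 in 5 of 5 with 0 of them past an unadjusted p under 0.05, and the medians of T cell, B cell, red pulp macrophage and epithelium and pancreas markers were -0.08, -0.05, 0.08 and -0.13. The summed erythroid signal, on the linear scale, was 29100 and 26600 in old non-arthritic mice, against 24000, 12500, 24800 and 20500 in young non-arthritic mice. Mpo lay at 12.07 and 12.22 in the old non-arthritic mice, against 13.24, 13.31, 13.63 and 12.59 in the young. The shape was that of the members, with the mouse of 1 month just above the old mice.

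Regulators were counted as well. Of 14 transcription factors and growth factor signals of granulocytes, 10 were tested and 1 passed at equal age, the progenitor factor Myb (log2 difference 0.47, standard error 0.10, adjusted p = 0.0439 from limma), read by a probe set whose name, like that of Epcam, marks possible cross-hybridization. The call of Myb ended under 10 of 18 alternatives, with adjusted p-values of up to 0.236, among them leaving out old arthritic replicate 2, either old non-arthritic mouse, either young arthritic mouse or young non-arthritic replicate 2, and taking the replicate number as a block. Another 8 were higher at an unadjusted p under 0.05, and the median was 0.36. Cebpd and Cebpb, of the C/EBP family, had 0.71 (standard error 0.18) and 0.37 (standard error 0.12), and Il17ra, the receptor for IL-17, had 0.28 (standard error 0.09). Cebpe was not analysed here. The cytokine genes Csf3, Csf2 and Il17a, which encode G-CSF, GM-CSF and IL-17, lay below the filter and were not tested. Partners of granule release were close to the whole, with a median of 0.08 over 7 tested genes. Among them Rab27a, a small GTPase of granule docking, had 0.64 (standard error 0.17). Receptors and substrates of the granule proteins had a median of 0.14 over 8, with Timp1, an inhibitor of metalloproteases, at 0.52 (standard error 0.23).

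Other cells moved in part with the members. The list of eosinophil and mast cell markers held Epx, Prg2, Cpa3 and Mcpt8, of which Mcpt8 is a basophil protease. The median of the 4 was 0.97 at equal age, and Cpa3, a mast cell protease, passed (0.95, standard error 0.21, adjusted p = 0.0485 from limma). The call of Cpa3 ended under 10 of 18 alternatives too, with adjusted p-values of up to 0.252, among them leaving out either old non-arthritic mouse, either young arthritic mouse or young non-arthritic replicate 1, 2 or 3, and the replicate block. The summed signal of the 4 markers, on the linear scale, was 4560 to 10900 in the 4 arthritic and 2460 to 9420 in the 6 non-arthritic mice. For the 4 markers of neutrophil progenitors it was 26000 to 44300 in arthritic and 11000 to 34000 in non-arthritic mice, with a median log2 difference of 1.17. Medians were 0.19 for erythroid, 0.01 for red pulp macrophage, 0.01 for B cell and 0 for T cell markers, with 0 genes of these 4 lists past the threshold and 1, the macrophage marker Cd68, higher at an unadjusted p under 0.05. Within young mice the erythroid median was 0.54, above 0 in 5 of 5 with 0 past an unadjusted p under 0.05, beside the members' 0.66. The summed erythroid signal was 25000 and 30200 in young arthritic mice, against 24000, 12500, 24800 and 20500 in young non-arthritic mice, so replicate 2 of the latter weighed on this median. The eosinophil and mast cell median was 0.49 there, and those of red pulp macrophage, B cell and T cell markers were 0.07, 0.05 and 0. Within old mice the medians were 0.61 for eosinophil and mast cell, 0.28 for erythroid, 0.06 for B cell, -0.14 for red pulp macrophage and -0.22 for T cell markers, all 4 of the last below 0. The part of these cells in the members' values was not tested. In whole spleen pieces, fewer cells of a type and less RNA per cell cannot be told apart.

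**Figure D5:**
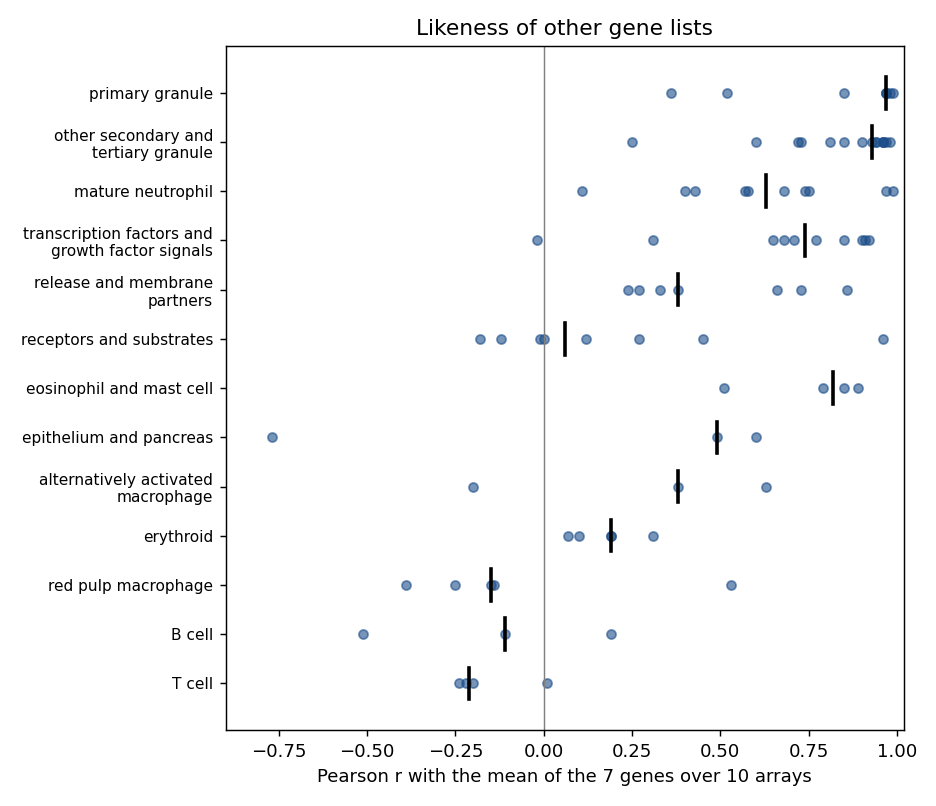
Pearson's r over the 10 arrays (x-axis) between single genes and the mean of the 7 standardized members, by gene list (rows), where each point is 1 gene and the bar is the median of the list. Medians are 0.97 for primary granule genes and 0.93 for other secondary and tertiary granule genes, 0.63 for mature neutrophil genes, and -0.21 for T cell markers.

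Likeness to the members was summarized by list. The median r was 0.97 over the primary granule list, 0.93 over the other secondary and tertiary granule list, 0.82 over eosinophil and mast cell markers, 0.74 over regulators, 0.63 over mature neutrophil genes, 0.38 over release partners and 0.06 over receptors and substrates. Over the shorter list of 5 mature neutrophil markers, which includes Mmp9, it was 0.9 (0.11 to 0.99). It was 0.49 over epithelium and pancreas markers (-0.77 in Prss2 to 0.60 in Epcam), 0.38 over alternatively activated macrophage, 0.19 over erythroid, -0.11 over B cell, -0.15 over red pulp macrophage and -0.21 over T cell markers. These are descriptions over the same 10 arrays, and the differences between lists were not tested.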

How the data were processed

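Total RNA of spleen pieces was isolated with TriReagent and biotin-labelled for Affymetrix arrays. The deposited table holds a log2 signal for each probe set, which the authors computed with RMA by the submitters' processing notes, with no version given in the sources used here. RMA subtracts background, brings arrays to 1 distribution and summarises the probes, so the values are relative to the array and can understate changes of dim and very bright probes. The paper does not describe these arrays, so no test follows a method of it.

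Of 45101 rows, 64 control rows were left out. Of the 45037 others, the platform annotation gives 1 gene symbol for 34945, several for 932 and none for 9160, and only the first were named. A probe set was tested if its value exceeded the array median in 2 or more arrays (23805). Tests used lmFit and eBayes of limma 3.58.1, run under R 4.3.3, and Benjamini-Hochberg adjustment over all kept probe sets and a threshold of 0.05. A fit of 4 group means (6 residual degrees of freedom) gave the group comparisons, and a fit of age in months and arthritis status (7 residual degrees of freedom) gave those at equal age. Where a gene had several tested probe sets, the brightest on average was used. Named are all members, up to 4 genes of each list with the smallest p at equal age, the markers of the tissue check and the 10 genes most like the members. The members and lists were chosen with earlier results of these data known. List genes not matched to a probe set of their own were not analysed here. Alternatives changed the filter, the normalization, the model of the spread and the arrays in the fit. The fits were also run on simulated data in which probe sets varied independently of each other. The measured probe sets did not vary so, and no result here rests on that run. The number of arrays limits the precision, and the p-values reflect only the spread among the mice used. Sequences were searched with Python 3.11.15, paralogs aligned with Biopython 1.88, and figures drawn with matplotlib 3.10.9.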

Additional observations from a re-analysis of the deposited data

How the results depend on the processing

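No log2 difference of a member changed sign under any alternative. Among mice aged 4 months or more, where 1 of the 7 genes passed, 7 passed without the filter and with array weights, and 0 passed with a stricter filter, median centring, quantile normalization again, a trend of the spread with intensity, the replicate number as a block or only the groups compared. Leaving out each array gave 0 to 7, with 7 only without old arthritic replicate 1. At equal age, where 0 passed, 7 passed without the filter and with array weights, and 0 to 1 when each array was left out, Lcn2 passing without young non-arthritic replicate 4. In old mice, where 0 passed, 4 passed without the filter and 0 to 2 when each array was left out. The other comparisons had 0 throughout. Without the filter the dim probe sets, whose first component separated arthritic from non-arthritic mice, enter the adjustment as well. The cause of the changes was not tested. Of single values, 472 kept their side of the threshold when arrays were left out, with 9 gained and 9 lost calls, and 349 did under other alternatives, with 30 gained and 6 lost. A lone mouse of a group was assumed to vary like the other groups. The main fits did not pair mice with the same replicate number, as the labels name no pairs. Their deviations from the group means correlated at -0.53 to 0.36. These values cannot show or exclude a pairing, since the deviations in a group of 2 mirror each other. Of the 7 genes the block changed only the call of Lcn2. The alternatives for Myb and Cpa3 were added after the data were seen, and the block ended both calls (adjusted p = 0.0857 and 0.0559).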
